A study of Mus musculus with 20 samples.

Results

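Splicing of mRNA precursors depends on a large set of proteins whose own mRNAs are abundant in dividing cells. The transcripts described here encode 62 such proteins, chosen by gene symbol from the 23284 genes of the RIP-Seq tables, and they fall into 5 classes. The SR class holds 11 genes (Srsf), the hnRNP class 18 (Hnrnp), the SF3 class 8 (Sf3a and Sf3b), the Snrp class 12 and the Prpf class 13. The symbol alone decided membership, and no measured value entered it.

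SR proteins carry arginine- and serine-rich tails, bind exonic enhancers and help recruit the spliceosome, whereas hnRNP proteins coat nascent transcripts and often oppose the use of nearby splice sites. Snrp genes encode the Sm ring proteins shared by the spliceosomal small nuclear ribonucleoproteins (snRNPs) together with proteins specific to the U1 and U2 snRNPs. The SF3a and SF3b complexes belong to the U2 snRNP and engage the branch site, and Prpf genes encode pre-mRNA processing factors named after yeast splicing mutants, many of them part of the U4/U6.U5 tri-snRNP. Several SR and hnRNP mRNAs are known to be controlled by the proteins they encode, through alternative exons that lead to decay or nuclear retention of the mRNA.

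The libraries came from mouse embryonic stem cells (ESCs) in which the endogenous Tet1 or Tet2 gene had been given a C-terminal Flag, HA and Twin-Strep tag by CRISPR-Cas9n knock-in. Tet enzymes oxidise 5-methylcytosine, in RNA as well as in DNA. The 3 groups of cells were Tet1-KI, Tet2-KI and Tet2ΔRBD-KI, the last with a tagged Tet2 that lacks its RNA-binding domain, all grown on gelatin in serum and leukemia inhibitory factor. Each line was compared as RNA recovered with an anti-Flag antibody (IP) against RNA without immunoprecipitation (input), in 2 replicates for Tet1, 4 for Tet2 and 4 for Tet2ΔRBD, which gave 20 libraries in 10 pairs. The tagged cells were picked as clones, the number of clones behind each group is not given in the sources used here, and the labels do not say whether replicates were separate cultures, so p-values measure the spread between these libraries. According to the methods the IP started from cytoplasmic extract and the input was total RNA. The fraction and the antibody therefore cannot be told apart in any comparison of IP with input, and the mouse IgG reactions described in the methods were not analysed here.

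The libraries held between 21078995 and 37576638 expected counts per library, so counting error was small for all members but the least abundant. All 10 listed pluripotency genes had a mean input TPM of at least 1, and their summed level lay between 14573 and 19003 TPM in the inputs. The 3 trophoblast markers stayed below a mean of 1 TPM, whereas 3 of 6 fibroblast or feeder markers, all 5 primitive endoderm markers and 2 of 3 neural markers passed it, with sums over each list of at most 63.2, 103 and 128 TPM in any input. Replicates 1 and 2 of Tet2 and Tet2ΔRBD each carry a number in the deposited data that differs from that shared by replicates 3 and 4 and by all Tet1 libraries. Counts of replicates 3 and 4 differed little, with a mean chi-square per gene of 2.79 to 17.2 in the IP and input groups of these lines, against 140.3 to 559 between any other replicates of a group and 7.92 to 8.04 between the Tet1 replicates. Replicates 3 and 4 therefore added less independent information than their number, and values are given per replicate, in the order 1 to 4 (1 to 2 for Tet1).

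Input levels differed between the classes. TPM, a share of transcripts corrected for transcript length and scaled to the same total in each library, had a median over the tested members of 424 in the Snrp class, 155 in the SR class, 119 in the SF3 class, 115 in the hnRNP class and 18.0 in the Prpf class, against 9.21 over all 13710 genes tested (means over the 10 inputs). Snrpg, which encodes the Sm ring protein SmG, was the most abundant member at 1661 TPM, and Snrpe and Snrpd2, for SmE and SmD2, followed. Hnrnpf led the hnRNP class at 654 TPM, Srsf2 the SR class at 459.7, Sf3b5 the SF3 class at 295 and Prpf19, a ubiquitin ligase of the spliceosome, the Prpf class at 82.6. At the lower ends stood Snrpb2 (89.1 TPM), Sf3b1 (58.0 TPM), Hnrnpr (26.7 TPM), Prpf39 (1.41 TPM) and Srsf12 (0.328 TPM). Srsf12 was the only member with a mean input below 1 TPM and was left out of the class medians of ratios, which rest on the other 61.

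**Figure D1:**
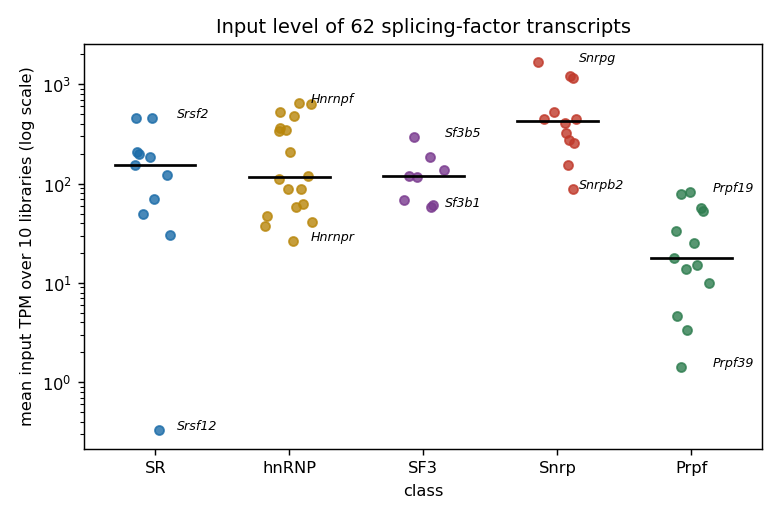
Mean input TPM over the 10 input libraries (log axis) for each of the 62 transcripts, by class, with a line at the class median. The Snrp transcripts sit highest and the Prpf transcripts lowest, and Srsf12 lies apart at 0.328 TPM.

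Single input libraries moved these levels. Over the 10 inputs, the class median ran from 83.1 to 175 TPM for SR, from 87.3 to 177 for hnRNP, from 64.1 to 177 for SF3, from 349 to 406 for Snrp and from 13.5 to 24.0 for Prpf. The inputs of the lines were compared with the library number as a term in edgeR's quasi-likelihood model. In Tet2ΔRBD against Tet2, Sf3b3, a subunit of SF3b, was called higher, with a fitted log2 difference of 0.33 ± 0.068 (SE, edgeR adjusted p = 0.0382), and no other member passed an adjusted p of 0.05. Of all 13310 genes in that fit, 1.35% were called higher and 1.79% lower. Without the Tet2 replicate 2 input 15 members were called, without the Tet2ΔRBD replicate 2 input 17, and with any other input left out 0. Over all genes, these fits called 1516 of 13277, 1479 of 13254 and, with any other input left out, 33 to 656, against 418 in the main fit. In Tet1 against Tet2, where all Tet1 inputs share 1 library number, 18 members were called higher (17.5% of all genes) and 4 lower (14.0%). Without the library number as a term none of these calls was made (0 members at an unadjusted p under 0.05 in edgeR), and DESeq2 with it called 15 higher and 4 lower. Over all 13310 genes, edgeR without the number called 54 (1212 at an unadjusted p under 0.05). DESeq2 with it called 2239 genes higher and 2109 lower. Sf3b3 again had the highest fitted difference, 1.22 ± 0.089 (SE, edgeR adjusted p = 1.21e-04), with Prpf8 at 0.91 ± 0.18 and Prpf6 at 0.91 ± 0.25. With the library number as a term, this contrast rested mainly on Tet2 replicates 3 and 4, which share the Tet1 number. Input TPM of Prpf8 was 58.1 and 56.2 in Tet1 and 71.4, 70.6, 26.1 and 29.4 in Tet2. For Prpf6 it was 34.9 and 37.1 against 47.6, 42.4, 15.6 and 15.7. In Tet1 both lay below Tet2 replicates 1 and 2. Sf3b3 had 159 and 165 in Tet1 and 86.9, 179, 61.0 and 69.3 in Tet2. The 4 lower members were the Sm genes Snrpe (-0.96 ± 0.11), Snrpf, Snrpg and Snrpd2. Input TPM of Snrpe was 952 and 916 in Tet1 and 909, 790, 1853 and 1783 in Tet2. For Snrpe, Snrpf and Snrpg the Tet1 inputs lay below Tet2 replicates 3 and 4 but above replicates 1 and 2.

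Pyrimidine tracts bind several splicing regulators, and the study examined UC-rich motifs in hydroxymethylated RNA. There the motif lay at the centres of hydroxymethylation peaks, mostly in introns, and Tet1 and Tet2 appeared to prefer it within such sites. The longest coding run is another measure in another region. To show what stretches of this kind the coding sequences of the leading members hold, the longest run of C and T in the coding part of the longest annotated mRNA is printed here for the 8 transcripts called lower in IP in all 3 lines, Srsf1 to Sf3a2, and for the 5 called higher in Tet2 IP, Prpf39 to Sf3b3. The run is in capitals, with 6 bases of coding sequence on either side in lower case, 5′ to 3′ on the mRNA strand, taken from the gencode vM1 transcripts and placed on NCBIM37 (mm9).
Srsf1: acgctaTTCTCCCCgtcata, chr11:87863066-87863085, plus strand
Srsf2: tccaagTCCTCCTCCgtctcc, chr11:116713477-116713497, minus strand
Srsf3: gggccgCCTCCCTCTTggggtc, chr17:29175499-29175520, plus strand
Srsf6: tccatgTCCCCTCCgccaaa, chr2:162760413-162760432, plus strand
Snrpf: cccaagCCCTTTCTCaatggg, chr10:93050833-93050853, minus strand
Hnrnpf: ttacaaCTTCTTCTCTCCactcaa, chr6:117874689-117874712, plus strand
Hnrnpab: ggtttaTTCTCTTCaaagat, chr11:51418981-51419000, minus strand
Sf3a2: aacatgCCTCCCCCTCCCCCaggcaa, chr10:80267530-80267555, plus strand
Prpf39: aggagaCTTCCCTCCagagtt, chr12:66143692-66143712, plus strand
Prpf8: gatgcgTTTCCCCCCTTTCgatgac, chr11:75303554-75303578, plus strand
Prpf3: aagacaCCTTCTTCTTCCCaaccag, chr3:95651491-95651515, minus strand
Hnrnpu: tgagtgCTTCTTCCCTTactatg, chr1:180264096-180264118, minus strand
Sf3b3: ttaccaTTTCCTCTCCCCTggaggc, chr8:113365762-113365786, minus strand
Each lies within 1 coding exon. Runs of at least 8 bases, as in Srsf1, Srsf6 and Hnrnpab, occur in 90.2% of all coding sequences, runs of at least 9, as in Srsf2, Snrpf and Prpf39, in 78.8%, and runs of at least 13, as in Prpf8, Prpf3 and Sf3b3, in 23.3%. The run in Srsf3 has 10 bases (64.5% have one as long), that in Hnrnpu 11 (48.3%), that in Hnrnpf 12 (33.5%) and that in Sf3a2 14 (15.3%). The printed runs have 8 to 14 bases in the 8 transcripts called lower and 9 to 13 in the 5 called higher. By class, the median longest run was 8 bases in SR, 9 in Snrp, 10 in Prpf, 10.5 in hnRNP and 11 in SF3, against 10 over all genes tested. Across the 61 members, the run length correlated with the mean log2(IP/input) at r = 0.18 in Tet1, 0.41 in Tet2 and 0.30 in Tet2ΔRBD, and across 11239 genes at 0.047, 0.18 and 0.13. The points share libraries and base composition, and these values are descriptions only.

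Relative to input, the 5 classes separated. For each pair, the ratio is the TPM + 1 of the IP over the TPM + 1 of the input of the same replicate number, on the log2 scale. As a class, SR transcripts lay below input on this scale in every line, with a median of -0.45 ± 0.041 in Tet1 (SD, n = 2 pairs), -0.40 ± 0.085 in Tet2 and -0.38 ± 0.17 in Tet2ΔRBD (SD, n = 4 pairs each). Snrp transcripts had medians of -0.23 ± 0.028, -0.40 ± 0.20 and -0.19 ± 0.19 in the same order, and Prpf transcripts 0.39 ± 0.016, 0.61 ± 0.23 and 0.38 ± 0.22. SR medians were below 0 in all 10 pairs and Prpf medians above 0 in all 10. Snrp medians were below 0 in 9 pairs, with Tet2ΔRBD replicate 2 at 0.084. The hnRNP class (-0.078 ± 0.046, -0.12 ± 0.20 and 0.0064 ± 0.20) and the SF3 class (0.048 ± 0.033, 0.48 ± 0.48 and 0.20 ± 0.055) lay closer to 0 or varied more between pairs, and Tet2 replicate 2 gave the highest median of both in Tet2.

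These medians need the level of all genes beside them. The median over all genes tested was 0.084 ± 0.044 in Tet1, 0.21 ± 0.10 in Tet2 and 0.17 ± 0.10 in Tet2ΔRBD, so the TPM scale puts most genes above 0. When each pair was centred on its median expressed gene, the SR, Snrp and Prpf medians kept their signs in all 3 lines, whereas the SF3 median in Tet1 turned from 0.048 to -0.032 and the hnRNP median in Tet2ΔRBD, close to 0 before, lay at -0.17. The median of all members was -0.060 ± 0.0064, -0.056 ± 0.083 and 0.046 ± 0.11 uncentred and -0.14, -0.29 and -0.13 centred.

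**Figure D2:**
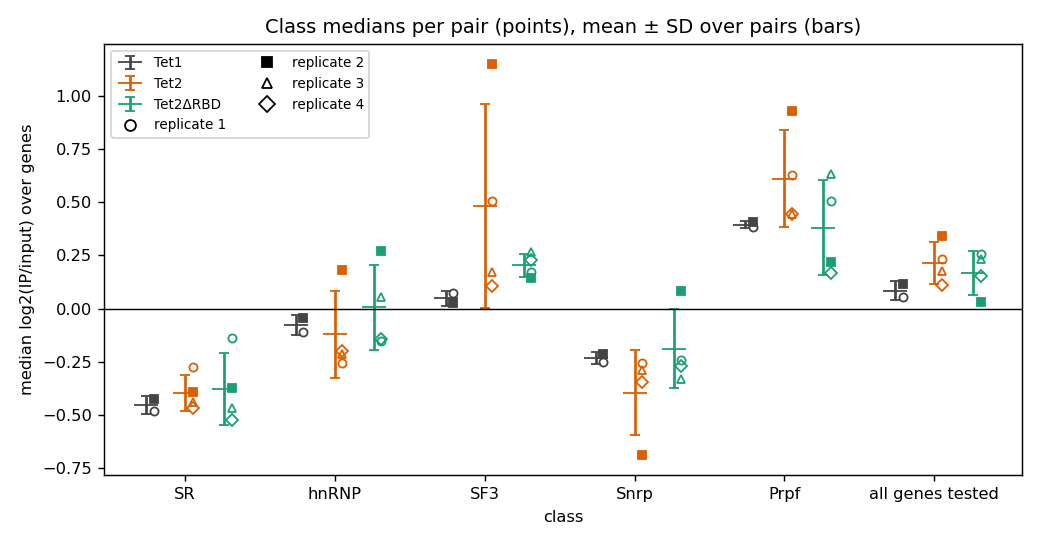
Median log2(IP/input) over the transcripts of each class and over all genes tested, for each pair (points, replicate 2 filled) with the mean ± SD over the pairs of a line (bars), in Tet1, Tet2 and Tet2ΔRBD. SR medians lie between -0.53 and -0.14 in all pairs and Prpf medians between 0.17 and 0.93, and SF3 spreads up to 1.15 in Tet2 replicate 2.

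Sign counts over the 10 pairs show the same split by class. In all 10 pairs, 11 of 62 members were below input (5 SR, 4 hnRNP, 2 Snrp) and 11 above it (6 Prpf, 3 SF3, 2 hnRNP), against 5.59% and 22.4% of all genes tested. No Prpf or SF3 member was below input in all 10, and no SR or Snrp member above it in all 10. In at least 8 pairs, 9 of 12 Snrp members were below input and 10 of 13 Prpf members above it. Within single lines, members above input in every pair numbered 24 in Tet1, 20 in Tet2 and 14 in Tet2ΔRBD, where 50.9%, 46.5% and 31.8% of all genes met the rule. Members below input in every pair numbered 31, 20 and 13, against 30.1%, 11.9% and 8.56%.

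**Figure D3:**
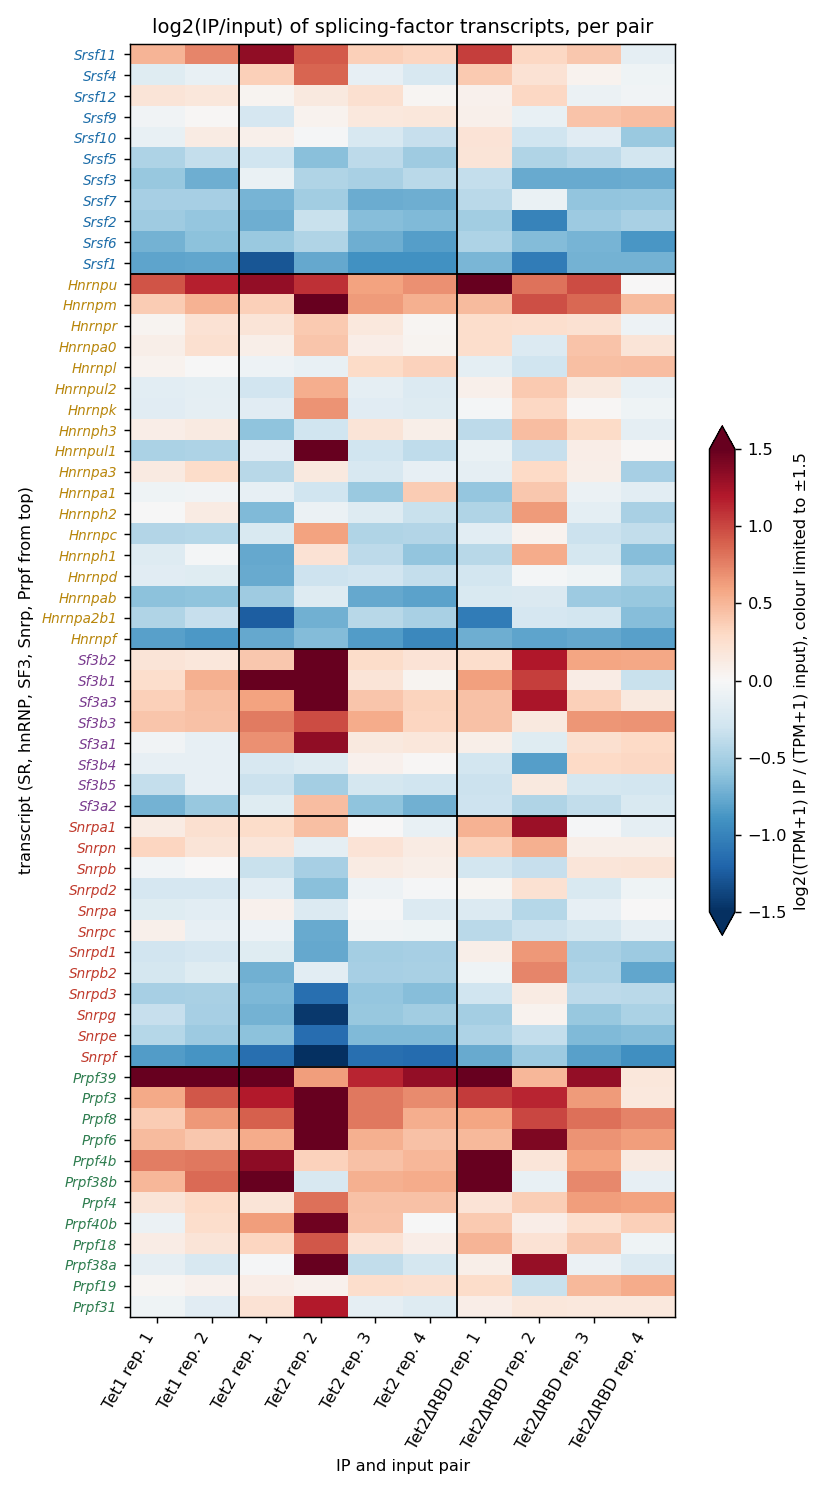
Heat map of log2((TPM + 1) in IP / (TPM + 1) in input) for 61 of the 62 transcripts (rows, by class and then by mean over pairs) in the 10 pairs (columns), with the colour limited to ±1.5. Blue rows gather in the lower SR, hnRNP and Snrp blocks and red rows in the Prpf block, and the Tet2 replicate 2 column departs from its neighbours, reaching 3.22 for Sf3b2.

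As a test, expected counts were fitted with edgeR over the 20 libraries, with 1 term per pair and 1 IP coefficient per line, and a gene was called at an adjusted p under 0.05 over all 13710 genes. In Tet2 IP, 27 members were called lower and 5 higher, with 18.5% of all genes called lower and 14.6% higher. In Tet2ΔRBD IP, 20 were called lower and 2 higher (12.1% and 7.4% of all genes), and in Tet1 IP 8 lower and 1 higher (3.18% and 2.72%). The median fitted effect over the members was -0.31 in Tet2, -0.22 in Tet2ΔRBD and -0.19 in Tet1, against 0.0032, -0.015 and -0.036 over all genes, since TMM normalization centres the fit. On the uncentred log2(TPM + 1) scale, limma called 16 members lower and 15 higher in Tet2, against 1125 and 4769 of all 13710 genes. In Tet2ΔRBD it called 10 members lower and 8 higher (624 and 3190 of all genes). In Tet1 it called 5 lower and 1 higher (122 and 391 of all genes). No member called by edgeR in a line had the opposite sign under any alternative. Leaving out either Tet1 replicate left 0 members called in Tet1 by edgeR (13 at an unadjusted p under 0.05 without replicate 1 and 11 without replicate 2), and in Tet2ΔRBD 13 were called without replicate 1 and 10 without replicate 3. Over all genes, these Tet2ΔRBD fits called 1235 of 13640 and 795 of 13666, against 2674 in the main fit. With replicates 3 and 4 merged into 1, 26 members were called in Tet2, 11 in Tet2ΔRBD and 5 in Tet1. Of the 13610 genes in the merged fit, 3191, 1060 and 316 were called in the same order. Fitted without the pair block, 7 members were called in Tet2, 1 in Tet2ΔRBD and 0 in Tet1 (8 at an unadjusted p under 0.05). Over all genes, edgeR then called 375, 46 and 0 (840 in Tet1 at an unadjusted p under 0.05).

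The member lists of the 3 lines were nested. All 3 came from 1 fit, which called 809 genes in Tet1, 4540 in Tet2 and 2674 in Tet2ΔRBD over the whole table. Overlap over all genes was not counted, so the nesting cannot be read as particular to these transcripts. All 8 members called lower in Tet1 were also called lower in Tet2 (29.6% of the 27) and in Tet2ΔRBD (40.0% of the 20), and all 20 of Tet2ΔRBD were among the 27 of Tet2 (74.1%). The 8 were Srsf1, Srsf2, Srsf3, Srsf6, Hnrnpf, Hnrnpab, Sf3a2 and Snrpf. Prpf39 was the 1 member called higher in every line.

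In the SR class, 7 of 11 members were called lower in each Tet2 line and 4 in Tet1, and none was called higher. Srsf1, the first SR protein shown to influence splice-site choice, had input TPM of 83.1, 167, 155 and 148 in Tet2 and IP TPM of 33.5, 97.6, 82.2 and 78.1. Each IP was below its own input, although the replicate 2 IP exceeded the replicate 1 input. Its log2 ratios in Tet2 were -1.29, -0.77, -0.91 and -0.91, those in Tet2ΔRBD -0.68, -1.05, -0.71 and -0.71, and those in Tet1 -0.79 and -0.77. The fitted effect was -1.30 ± 0.11 in Tet2 (SE, edgeR adjusted p = 8.37e-05), -1.07 ± 0.11 in Tet2ΔRBD (edgeR adjusted p = 4.28e-04) and -0.94 ± 0.16 in Tet1 (edgeR adjusted p = 0.0186).

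Srsf6, another enhancer-binding SR protein, was called lower in all 3 lines. Its TPM in Tet2 was 57.6, 118, 129.6 and 134 in input and 39.0, 85.9, 77.6 and 75.1 in IP, and in Tet1 162 and 140.4 in input and 98.7 and 91.1 in IP. The fitted effects were -0.97 ± 0.093 in Tet2, -0.95 ± 0.093 in Tet2ΔRBD and -0.82 ± 0.13 in Tet1 (edgeR adjusted p = 1.27e-04, 3.33e-04 and 0.0186). Both Tet1 IP values lay below both Tet1 inputs. Srsf2, a nuclear speckle protein also called SC35, had ratios of -0.74, -0.33, -0.64 and -0.66 in Tet2 and -0.52, -1.01, -0.55 and -0.49 in Tet2ΔRBD, where replicate 2 lay apart from the other 3. Srsf3, the smallest SR protein, which also takes part in mRNA export, had ratios of -0.10, -0.46, -0.48 and -0.40 and -0.35, -0.76, -0.76 and -0.75, with replicate 1 nearest to 0 in both lines.

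Srsf5, Srsf7 and Srsf10 completed the 7 in Tet2 and in Tet2ΔRBD, with fitted effects of -0.78 ± 0.11, -1.0 ± 0.12 and -0.46 ± 0.11 in Tet2. The gene models of Srsf3, Srsf7 and Srsf9 include a noncoding transcript, so part of their counts may come from isoforms that are not translated. The other 4 SR members did not pass in any line. Srsf11, an SR protein known to associate with U2AF, had ratios of 1.33, 0.92, 0.35 and 0.32 in Tet2 and 1.03, 0.31, 0.40 and -0.14 in Tet2ΔRBD, above input in 9 of 10 pairs (fitted 0.43 ± 0.18 in Tet2, edgeR adjusted p = 0.0795). Srsf4 and Srsf9 had fitted effects in Tet2 of -0.10 ± 0.14 and -0.29 ± 0.13, and Srsf12 was too low for a narrow estimate (0.18 ± 0.34).

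In the Snrp class, 10 of 12 members were called lower in Tet2, 6 in Tet2ΔRBD and 1 in Tet1, with none higher. The 10 comprised all 7 members that encode Sm ring proteins apart from Snrpn, namely Snrpb, Snrpd1, Snrpd2, Snrpd3, Snrpe, Snrpf and Snrpg, together with the U1 proteins Snrpa and Snrpc and the U2 protein Snrpb2. Snrpf, which encodes SmF, had the lowest fitted effect of any member in Tet2. Its TPM in Tet2 was 378, 371, 562 and 591 in input and 172, 124, 255 and 266 in IP, without overlap. In Tet2ΔRBD the input values were 358, 362, 504 and 525 and the IP values 212, 248, 287 and 277, again without overlap. The fitted effect was -1.57 ± 0.14 in Tet2, -1.04 ± 0.14 in Tet2ΔRBD and -1.01 ± 0.19 in Tet1 (SE, edgeR adjusted p = 9.40e-05, 0.00111 and 0.0227).

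Snrpe had ratios of -0.61, -1.14, -0.66 and -0.66 in Tet2 and -0.46, -0.35, -0.67 and -0.64 in Tet2ΔRBD and was below input in all 10 pairs. Snrpg had ratios of -0.71, -1.44, -0.56 and -0.52 in Tet2 and -0.51, 0.049, -0.57 and -0.47 in Tet2ΔRBD. For both, replicate 2 gave the lowest ratio in Tet2 and the highest in Tet2ΔRBD. Snrpg was called in Tet2 (-1.12 ± 0.20, edgeR adjusted p = 0.00262) and in Tet2ΔRBD (-0.65 ± 0.20, edgeR adjusted p = 0.0429). The Tet2 call of Snrpg was made in 11 of 12 alternatives and the Tet2ΔRBD call in 4 of 12, with effects from -0.83 to -0.38 in the latter. Snrpc, of the U1 snRNP, had ratios of -0.075, -0.75, -0.049 and -0.065 in Tet2, where replicate 2 alone lay far below 0, and its centred fit gave -0.55 ± 0.16 (edgeR adjusted p = 0.0207). The Snrpc call was made in 6 of 12 alternatives in Tet2 and in 6 of 12 in Tet2ΔRBD. Snrpb2 was the least abundant Snrp member and was called in Tet2 (-0.79 ± 0.22, edgeR adjusted p = 0.0191) but not in Tet2ΔRBD (-0.43 ± 0.22, edgeR adjusted p = 0.189). Snrpa1, of the U2 snRNP, and Snrpn, an imprinted Sm gene known for its expression in neurons, had fitted effects in Tet2 of -0.16 ± 0.21 and -0.22 ± 0.14. Sm genes have processed copies elsewhere in the genome, and RSEM divides reads only among the transcripts it was given, so small differences for these short mRNAs are uncertain.

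In the hnRNP class, 8 of 18 members were called lower and 1 higher in Tet2, 5 lower in Tet2ΔRBD and 2 lower in Tet1. Hnrnpf, which binds G-rich tracts, had the narrowest range of ratios over the 10 pairs of the 62 members. Its Tet2 TPM was 656, 789.6, 454 and 445 in input and 384, 501, 253 and 227 in IP, and its 10 ratios lay between -0.97 and -0.65. Every IP was below its own input, while the replicate 2 IP exceeded the inputs of replicates 3 and 4. The fitted effect was -1.13 ± 0.093 in Tet2, -1.05 ± 0.093 in Tet2ΔRBD and -0.99 ± 0.13 in Tet1 (SE, edgeR adjusted p = 7.80e-05, 2.58e-04 and 0.0186).

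Hnrnpa2b1, an abundant core hnRNP, had ratios of -1.23, -0.72, -0.41 and -0.49 in Tet2 and -1.05, -0.25, -0.27 and -0.64 in Tet2ΔRBD, with replicate 1 the lowest in both. It was called in both lines (-1.20 ± 0.18 and -0.94 ± 0.18, edgeR adjusted p = 0.00105 and 0.00685). Hnrnpab, Hnrnpc and Hnrnpd, the last a binder of AU-rich elements, were also called lower in both, and Hnrnpa3, Hnrnph1 and Hnrnph2 in Tet2. The Hnrnpd call was made in 12 of 12 alternatives in Tet2 and in 4 of 12 in Tet2ΔRBD. Hnrnpu, a nuclear matrix protein that binds RNA and chromatin, went the other way. Its TPM in Tet2 was 78.4, 89.8, 73.5 and 66.3 in input and 197, 194, 112 and 107 in IP, with every IP above every input. The ratios in Tet2ΔRBD were 1.51, 0.81, 0.98 and 0.0076, with replicate 4 near 0, and the replicate 4 input, at 168 TPM, was the highest of the 4. Hnrnpu was called higher in Tet2 (0.62 ± 0.19, edgeR adjusted p = 0.0269), and the effect was 0.56 ± 0.19 in Tet2ΔRBD (edgeR adjusted p = 0.0577) and 0.91 ± 0.26 in Tet1 (edgeR adjusted p = 0.0661). The Tet2 call of Hnrnpu was made in 7 of 12 alternatives. Hnrnpm, the other hnRNP transcript above input in all 10 pairs, did not pass (0.47 ± 0.18 in Tet2, edgeR adjusted p = 0.0618). Hnrnpr, the least abundant of the class, had fitted effects of -0.12 ± 0.10 in Tet2 and -0.10 ± 0.10 in Tet2ΔRBD.

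In the SF3 class the members parted within the complexes. Sf3a2 and Sf3b5 were called lower in Tet2 and Tet2ΔRBD, Sf3a2 also in Tet1, and Sf3b3 was called higher in Tet2. Sf3b3, a scaffold subunit, had Tet2 TPM of 86.9, 179, 61.0 and 69.3 in input and 149.7, 354, 90.5 and 86.9 in IP. Each IP was above its own input, but replicate 2 was high in both, so the groups overlapped. The fitted effect was 0.35 ± 0.10 (SE, edgeR adjusted p = 0.0262) in Tet2 and 0.21 ± 0.10 (edgeR adjusted p = 0.176) in Tet2ΔRBD. The Tet2 call of Sf3b3 was made in 6 of 12 alternatives. Sf3b5, a small subunit, had ratios of -0.32, -0.51, -0.26 and -0.30 in Tet2 and -0.33, 0.15, -0.26 and -0.28 in Tet2ΔRBD, with replicate 2 alone above 0 in the latter. Its call was made in 11 of 12 alternatives in Tet2 and in 3 of 12 in Tet2ΔRBD, where the effect ran from -0.60 to -0.18. Sf3a2 had ratios of -0.18, 0.46, -0.60 and -0.72 in Tet2, where replicate 2 alone was above 0. Sf3b1, the subunit that contacts the branch-site helix, had ratios of 2.03, 1.88, 0.19 and 0.040 in Tet2 and 0.61, 1.03, 0.11 and -0.34 in Tet2ΔRBD, the highest ones in replicates 1 and 2, and did not pass in any line.

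In the Prpf class no member was called lower in any line, and 3 were called higher in Tet2, 2 in Tet2ΔRBD and 1 in Tet1. Prpf8, the U5 protein at the catalytic centre of the spliceosome, had Tet2 TPM of 71.4, 70.6, 26.1 and 29.4 in input and 134, 209, 46.0 and 43.5 in IP. Every IP was above its own input, but replicates 1 and 2 were higher than 3 and 4 in both, so the groups overlapped. The fitted effect was 0.65 ± 0.14 in Tet2 (SE, edgeR adjusted p = 0.00634), 0.53 ± 0.14 in Tet2ΔRBD (edgeR adjusted p = 0.0257) and 0.38 ± 0.20 in Tet1 (edgeR adjusted p = 0.28).

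Prpf39, a U1-associated factor, had the highest fitted effect of any member in every line and the lowest input of its class. Its TPM was 0.580, 0.690, 1.44 and 1.62 in Tet2 input and 3.62, 1.60, 4.38 and 5.51 in Tet2 IP, and 1.39 and 0.740 in Tet1 input and 5.73 and 5.41 in Tet1 IP. In Tet1 both IP values exceeded both inputs, whereas in Tet2 the replicate 2 IP, at 1.60 TPM, lay below the replicate 4 input, at 1.62 TPM. The fitted effects were 2.29 ± 0.53 in Tet1, 1.5 ± 0.37 in Tet2 and 1.25 ± 0.37 in Tet2ΔRBD (SE, edgeR adjusted p = 0.0354, 0.0112 and 0.0391), and the log2(TPM + 1) ratios understate the change at such low levels. The Prpf39 call was made in 11 of 12 alternatives in Tet2 and in 6 of 12 in Tet2ΔRBD. Prpf3, of the U4/U6 snRNP, had ratios of 1.19, 1.54, 0.79 and 0.71 in Tet2 and 1.05, 1.15, 0.64 and 0.15 in Tet2ΔRBD. It was called in Tet2 (0.79 ± 0.18, edgeR adjusted p = 0.00722). Prpf4, Prpf6 and Prpf4b were also above input in all 10 pairs without passing in any line. Prpf19 had ratios of 0.094, 0.066, 0.27 and 0.24 in Tet2 and a centred fitted effect of -0.15 ± 0.13.

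Whether the RNA-binding domain of Tet2 bears on these transcripts was tested in the same fit by contrasting the IP coefficient of Tet2 with that of Tet2ΔRBD. No member was called by edgeR (2 of 62 at an unadjusted p under 0.05, and 0 called by DESeq2 or limma, with 2 unadjusted in each), where 3 of the 13710 genes, or 0.0219%, were called higher and none lower. The 4 largest differences were those of Sf3b1, 0.64 ± 0.46 (SE), Snrpd3, -0.55 ± 0.22, Snrpf, -0.53 ± 0.19, and Snrpg, -0.47 ± 0.28. Unadjusted p-values were 0.0317 for Snrpd3 and 0.0195 for Snrpf in the edgeR fit. Snrpd3, which encodes SmD3, had Tet2 ratios of -0.68, -1.13, -0.58 and -0.63 and Tet2ΔRBD ratios of -0.30, 0.12, -0.40 and -0.41, without overlap between the lines. By class, the median difference was -0.28 in Snrp, -0.081 in hnRNP, 0.0065 in SR, 0.092 in Prpf and 0.14 in SF3, against -0.0051 over all genes. On the ratio scale, the Snrp class medians parted most in replicate 2, at -0.69 in Tet2 and 0.084 in Tet2ΔRBD. With replicate 2 left out, the Snrp medians were -0.30 in Tet2 and -0.28 in Tet2ΔRBD. The SE of the difference had a median of 0.22 over the members and ran from 0.13 to 0.73, so a missed threshold does not show that the lines acted alike.

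**Figure D4:**
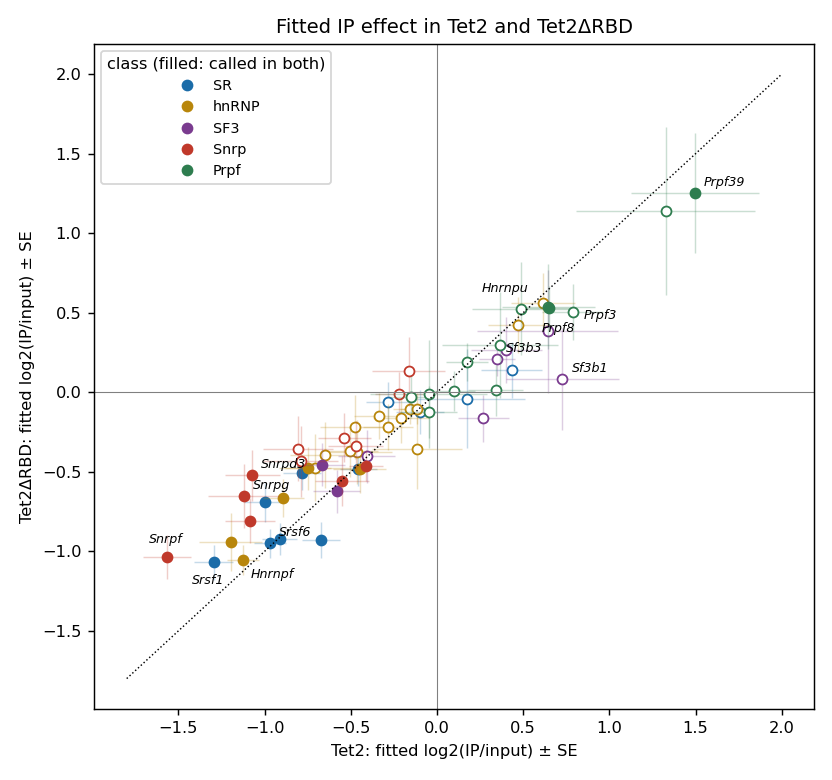
Fitted log2(IP/input) ± SE of the 62 transcripts in Tet2 (x axis) and Tet2ΔRBD (y axis), coloured by class, filled where called in both lines, with the line of equality dotted. Points follow the line from Srsf1 and Snrpf at the lower left to Prpf39 at the upper right, and the Snrp points Snrpf, Snrpg and Snrpd3 lie above it.

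Most of the spread lay in replicates 1 and 2. Because replicates 3 and 4 were close to each other, the median of the 4 lies near them, and the farthest pair could seldom be either. In Tet2, replicate 2 was the pair farthest from the median of the 4 for 39 of 62 members, with replicate 1 farthest for 16, and in Tet2ΔRBD the counts were 38 and 15. Sf3b2, an SF3b subunit, had Tet2 input TPM of 149, 176, 102 and 105 and IP TPM of 197, 1651, 124 and 121, so the replicate 2 IP stood far above every other value. Its ratios were 0.40, 3.22, 0.28 and 0.20 in Tet2 and 0.26, 1.20, 0.60 and 0.58 in Tet2ΔRBD. Prpf6, which bridges U5 and U4/U6, had Tet2 IP TPM of 70.4, 209, 23.0 and 21.5, Prpf38a, a factor of spliceosome activation, 77.1, 199, 61.7 and 64.0, and Hnrnpul1, an Hnrnpu relative, 75.4, 302, 34.0 and 32.9. In each the replicate 2 IP was the highest of the 4.

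Part of this recurred in Tet2ΔRBD. Prpf38a had a replicate 2 ratio of 1.31 there against -0.20 to 0.082 in the other 3, with a replicate 2 input of 33.5 TPM where the other inputs were at least 84.7 TPM. Snrpa1 had Tet2ΔRBD ratios of 0.52, 1.29, -0.020 and -0.13, again with a low replicate 2 input, 160.3, 63.6, 176 and 190.0 TPM over the 4. Hnrnpul1 had a high replicate 2 ratio in Tet2 and one of -0.34 in Tet2ΔRBD. With replicate 2 left out of both lines, 38 members were called in Tet2 (31 lower, 7 higher) and 35 in Tet2ΔRBD (31 lower, 4 higher). Of those called over all replicates, 30 of the 32 and 22 of the 22 were among them. Calls rose over the whole table too. Of the 13639 genes in that fit, 2856 were called lower and 2361 higher in Tet2, and 2385 and 1816 in Tet2ΔRBD.

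**Figure D5:**
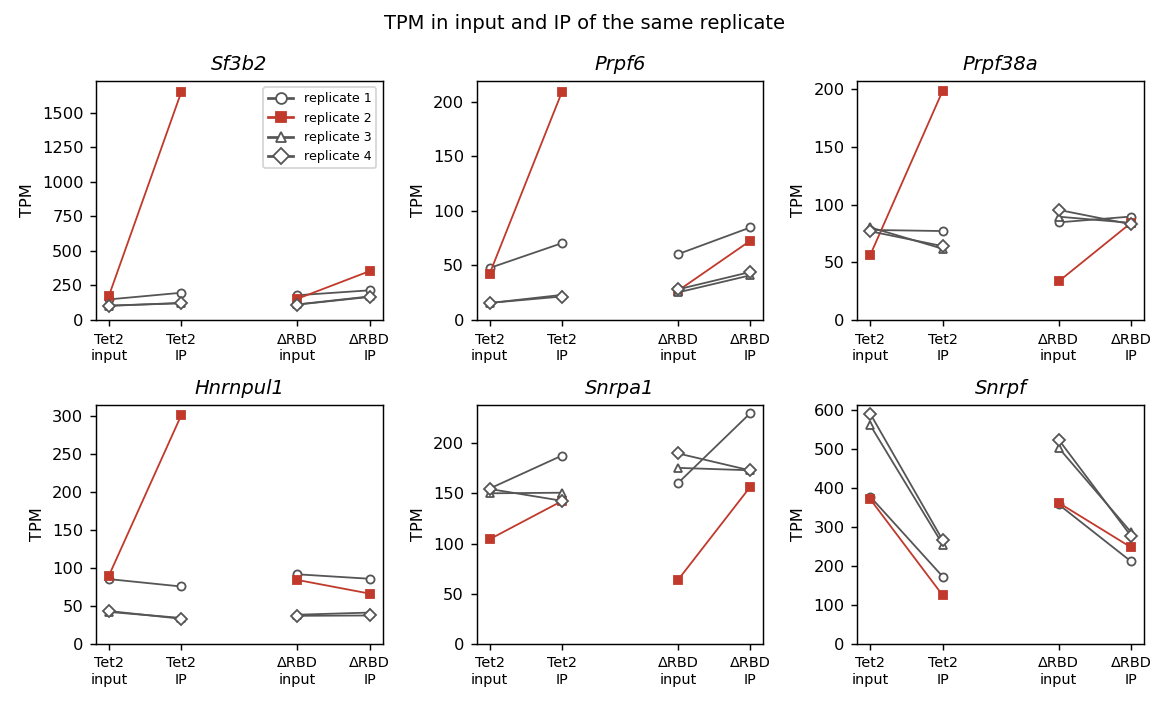
TPM in input and IP of the same replicate, joined by a line, in Tet2 and Tet2ΔRBD (replicate 2 in red) for 6 transcripts. Replicate 2 of the Tet2 IP stands out for Sf3b2 at 1651 TPM and for Prpf6, Prpf38a and Hnrnpul1, and lies below its input for Snrpf as in the other replicates, while the Tet2ΔRBD replicate 2 input is the lowest of its line for Snrpa1.

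Base composition moved with some replicates as well. Against the GC content of the longest mRNA, the deviation of a pair from the median of the other 3 of its line correlated across the 61 members at r = 0.62 for Tet2ΔRBD replicate 4 and -0.40 for replicate 1, and across 11239 genes at 0.57 and -0.49. For replicate 2 the member values were 0.15 in Tet2 and -0.20 in Tet2ΔRBD. Genes share library and depth in these values, and the part of base composition in the results was not tested.

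Ratios were lower for more abundant members. To avoid a shared input library, the mean log2(IP/input) of a line was set against log2(input TPM + 1) of another line. Across the 61 members Pearson's r was -0.70 for Tet2 and -0.69 for Tet2ΔRBD, both against Tet1 inputs, and -0.73 for Tet1 against Tet2 inputs, whereas across 11669 genes with a mean input of at least 1 TPM it was -0.23, -0.20 and -0.20. The 20 members of lowest Tet1 input (up to 59.6 TPM) had a median Tet2 ratio of 0.60 and the 20 of highest input (from 240 TPM) one of -0.35. For Tet2ΔRBD these medians were 0.31 and -0.22, and for Tet1, against Tet2 inputs, 0.20 and -0.33. Length moved with the ratios too, at r = 0.50 in Tet2, 0.38 in Tet2ΔRBD and 0.38 in Tet1 against log2 effective length over the members. Across 11239 genes, against log2 mRNA length, r was 0.41, 0.34 and 0.17 in the same order. The Snrp class was the shortest, with a median effective length of 757 bases, and the Prpf class the longest, with 3345. Abundance, length and class cannot be told apart among these members.

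Other genes of the pathway were counted by list. Of 53 other snRNP and spliceosome proteins tested, 15 were called lower and 10 higher in Tet2 (18.5% and 14.6% of all genes), 6 in either direction in Tet2ΔRBD (12.1% and 7.4%), and 1 in either direction in Tet1 (3.18% and 2.72%), with a median fitted effect of -0.0058 in Tet2. As shares of the list these counts are 28.3% and 18.9% in Tet2, 11.3% each in Tet2ΔRBD and 1.89% each in Tet1. The lower ones included 5 of the 6 Lsm genes tested, which encode the Sm-like ring of the U6 snRNP, such as Lsm5 at -1.07 ± 0.17 (SE, edgeR adjusted p = 0.00128). The higher ones included Cdc5l, a core member of the Prpf19 complex, at 1.90 ± 0.32 (edgeR adjusted p = 0.00175) and Cwc22, which links the spliceosome to the exon junction complex, at 1.73 ± 0.31. Among 18 hnRNP-like regulators, 10 were called lower and 2 higher in Tet2, 8 and 1 in Tet2ΔRBD and 3 lower in Tet1, with the poly(C)-binding Pcbp2 at -1.16 ± 0.12 in Tet2 (edgeR adjusted p = 1.57e-04) and the splicing repressor Ptbp2 at -1.03 ± 0.13. Of 8 SR-like proteins, Tra2a (-0.99 ± 0.089 in Tet2, edgeR adjusted p = 9.40e-05) and Tra2b were called lower in Tet2 and Tet2ΔRBD, and none was called higher. Among 7 kinases and importers of SR proteins, Clk1, which phosphorylates SR proteins, was called higher in Tet2 (0.94 ± 0.26, edgeR adjusted p = 0.0203) and no other call was made in any line. The difference between Tet2 and Tet2ΔRBD was called for none of these genes by edgeR.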

How the data were processed

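RIP-Seq libraries from mouse ESCs were made by the study's authors from anti-Flag IP and input RNA, 20 in all. The authors checked reads with FastQC and AfterQC, removed rRNA and tRNA reads with Bowtie2, trimmed with Trimmomatic and estimated abundances with RSEM against RefSeq transcripts on mm9 (tool versions not given in the sources used here). The deposited files hold expected counts and TPM per gene. RSEM expected counts divide multi-mapping reads among the transcripts supplied, so related sequences such as Snrpb and Snrpn or copies of Hnrnpa1 remain uncertain. Depth was 21078995 to 37576638 expected counts per library, with a median of 25517290.

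Members, lists and tests were chosen with earlier results of these data known. Expected counts were rounded and tested with edgeR 4.0.16 in R 4.3.3 (TMM, quasi-likelihood, 1 CPM in at least 2 libraries, 13710 genes, Benjamini-Hochberg), with each IP and its input as a pair and 7 residual degrees of freedom. Inputs were fitted with line and library number. The pairing comes from the replicate numbers in the labels. IP and input of the same number deviated together, with correlations of 0.61 to 0.86 in Tet2, 0.58 to 0.85 in Tet2ΔRBD and 0.18 in Tet1, where the 2 pairs mirror each other. Between different numbers they reached 0.78 in Tet2 and 0.69 in Tet2ΔRBD. Ratios were log2 of TPM + 1 in IP over TPM + 1 in input. DESeq2 1.42.0 and limma 3.58.1 on log2(TPM + 1) or log2(TPM + 0.1) were alternatives, besides leaving out replicates, merging replicates 3 and 4, no block, no filter and centring. The edgeR script was tested on simulated data.

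Genes named by rule were, among called members, the 6 highest and 6 lowest in Tet2 and the 4 highest and 4 lowest in Tet1 and Tet2ΔRBD, the extremes of input in each class, the 4 largest differences between Tet2 and Tet2ΔRBD, the 3 members farthest off in Tet2ΔRBD replicate 2, and members with 1 pair far from the other 3. Other members and the examples from the other lists were named after their values were seen. Coding sequences came from gencode vM1 on NCBIM37 (mm9). The values of 1 member are not reported here. Figures were drawn with matplotlib 3.10.9.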

Additional observations from a re-analysis of the deposited data

Results flagged for a closer look

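A pair was singled out where the gap between it and the nearest of the other 3 pairs of its line took up a larger part of the range of the 4 than the critical value of Dixon's test. With 4 independent pairs, chance singles out about 1 in 20 groups by this rule. Replicates 3 and 4 were close to each other, with a mean chi-square per gene of 2.79 to 17.2 against 140.3 to 559 between other replicates, so that rate does not hold here and replicate 1 or 2 is the more likely to be singled out. In all, 124 groups were examined, 62 members in each of Tet2 and Tet2ΔRBD. In Tet2, 11 members had such a pair, 9 of them in replicate 2. In Tet2ΔRBD there were 6, of which 4 were in replicate 2. All values are log2(IP/input).

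Tet2 replicate 2 lay above the other pairs for Sf3b2 at 3.22, Prpf6 at 2.28, Prpf38a at 1.80, Hnrnpul1 at 1.74, Hnrnpk, a KH-domain protein that binds C-rich RNA, at 0.67 and Hnrnpa0, a minor A/B-type hnRNP, at 0.42. It lay below them for the snRNP transcripts Snrpf at -1.57, Snrpe at -1.14 and Snrpc at -0.75. The hnRNP class median of the same replicate, 0.18, was also far above those of the other 3 pairs. In replicate 1 of Tet2, Prpf4b, a kinase of the tri-snRNP, stood high at 1.34 and Hnrnpd low at -0.75.

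In Tet2ΔRBD replicate 2, Srsf1 at -1.05 and Srsf2 at -1.01 lay below the other pairs, and Sf3b5 at 0.15 and Snrpg at 0.049 above them. Srsf3 stood nearest to 0 in replicate 1, at -0.35, and Hnrnpr lowest in replicate 4, at -0.078. No difference between Tet2 and Tet2ΔRBD passed its test for any member.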

How the results depend on the processing

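No member called in a comparison of IP with input changed sign under any alternative run. For members called between the inputs of 2 lines, signs under the alternatives are not given here. Under the alternatives, 148 counts and class medians stayed within their limits (counts within 1.5 times, medians within 1 SD over pairs), and the others follow. Members called in Tet1 (9) became 44 with Tet1 fitted alone on 1 residual degree of freedom, 4 with limma on log2(TPM + 0.1), 5 with replicates 3 and 4 merged, 0 without the replicate block and 0 to 0 with either replicate left out. Over all genes, the 809 called in Tet1 became 6985 of 12691 with Tet1 alone, 332 with that limma fit, 316 with replicates merged and 0 without the block. The members called in Tet2 (32) became 7 without the replicate block. In Tet2ΔRBD (22) the members called became 11 with that line alone, 11 with replicates 3 and 4 merged and 1 without the replicate block. They became 35 with replicate 2 left out of both lines, an alternative added after seeing the data, and 10 to 25 with 1 replicate left out. Over all genes, the 2674 called in Tet2ΔRBD became 748, 1060, 46, 4201 and 795 to 2750 in the same order. For inputs of Tet2ΔRBD against Tet2 (1), the count was 4 with DESeq2 and 0 without the library number as replicate block. It was 0 to 17 with 1 input left out. Over all genes, the 418 called in this input comparison became 858, 0 and 33 to 1516 in the same order. With no member called, the difference between Tet2 and Tet2ΔRBD kept a count of 0 in all 17 alternatives (0 to 9 at an unadjusted p under 0.05).

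With each pair centred on its median expressed gene, the class medians in Tet1 were -0.53 (SR), -0.16 (hnRNP), -0.032 (SF3), -0.31 (Snrp), 0.31 (Prpf) and -0.14 (all members). In Tet2 they were -0.63 (SR), -0.35 (hnRNP), -0.63 (Snrp), 0.38 (Prpf) and -0.29 (all members), and in Tet2ΔRBD -0.55 (SR), 0.028 (SF3) and -0.13 (all members). With Srsf12 included, the SR median in Tet1 was -0.41. Members above input in every pair numbered 11 in Tet2 and 5 in Tet2ΔRBD after centring, and 4 in Tet1, 3 in Tet2 and 1 in Tet2ΔRBD when at least 1.5-fold was asked. Comparing mean IP with mean input, without pairs, gave 34 in Tet2 and 31 in Tet2ΔRBD. Shares of all genes under these altered rules were not counted, so the changes cannot be read as particular to the members. The causes of these changes were not tested. Depth limits the estimates of Srsf12 and Prpf39 most.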
